A study of Mus musculus with 6 samples.

Results

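Inhibitory receptors of T cells and their ligands were examined in CD4 T cells of the mouse lung after exposure to house dust mite (HDM), an allergen, or to PBS, the saline control. The set was 9 genes given by name, of 22180 genes tested: Pdcd1 (PD-1) with its ligands Cd274 (PD-L1) and Pdcd1lg2 (PD-L2), Havcr2 (TIM-3), Lag3 (LAG-3), Tigit, Btla, Cd160 and Cd200. All 9 were measured, each by 1 probe set, the group of probes that an Affymetrix array uses for a transcript. Both groups were wild-type mice (WT) that had been sensitised and then challenged, 3 samples with house dust mites and 3 with PBS, and each sample was 1 array. Cells that carried CD45 and CD4 and lacked CD11b and F4/80 were sorted from digested lung. The sources used here do not state strain, age, dose, treatment days or how many mice made up a sample. The p-values therefore reflect the spread between these samples, which may be partly technical.

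Inhibitory receptors, also called immune checkpoints, are surface proteins that damp a T cell's response to antigen. PD-1 binds PD-L1 or PD-L2 on a neighbouring cell and recruits phosphatases to the T cell receptor, TIM-3 and LAG-3 act through other tails and ligands, and TIGIT and BTLA compete with or oppose activating partners. Activated T cells switch several of them on, effector and regulatory T cells among them, so these transcripts also serve as markers of recent or repeated stimulation. Values below are log2 signals after RMA, the authors' normalization: a step of 1 is a doubling, the scale is relative, and levels of different genes are not compared.

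The array medians lay between 6.57 and 6.64. Over all genes, 531 were higher and 345 lower in HDM by limma at an adjusted p below 0.05. Cd3e and Cd4, which define CD4 T cells, were bright in every array, with Cd4 between 12.47 and 12.73 and Cd3e between 12.72 and 13.09. Cd4 (0.15 ± 0.07 SE, n = 3 per group, limma adjusted p = 0.294) and Cd3e (0.10 ± 0.09, limma adjusted p = 0.662) did not pass the test of HDM against PBS. Of 7 measured T cell markers, Trat1, a T cell receptor adaptor, was lower (−0.59 ± 0.08, limma adjusted p = 0.00722) and 6 did not pass. In sorted cells analysed in bulk, more cells that carry a transcript and more transcript per cell cannot be told apart.

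Of the 9 genes, 4 were higher in HDM (Pdcd1, Havcr2, Lag3 and Pdcd1lg2), none was lower and 5 did not pass, with limma at an adjusted p below 0.05 over all 22180 genes. Of all genes, 2.39% were called higher and 1.56% lower at that adjusted threshold. At an unadjusted p below 0.05, 6 of the 9 genes were higher and 1, Btla, was lower, against 8.67% higher and 9.17% lower of all genes. The median log2 fold change was 0.79 over the 9 genes and −0.01 over all genes. In 6 of the 9 genes every HDM array lay above every PBS array, a separation that 10.8% of all genes showed upward, and in 3 genes (Cd274, Btla and Cd160) the groups overlapped. A difference of at least 1 on the log2 scale was reached by 3 of the 9 genes, against 0.933% of all genes. The plot of signal by array shows all 9 genes on axes of equal height.

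**Figure D1:**
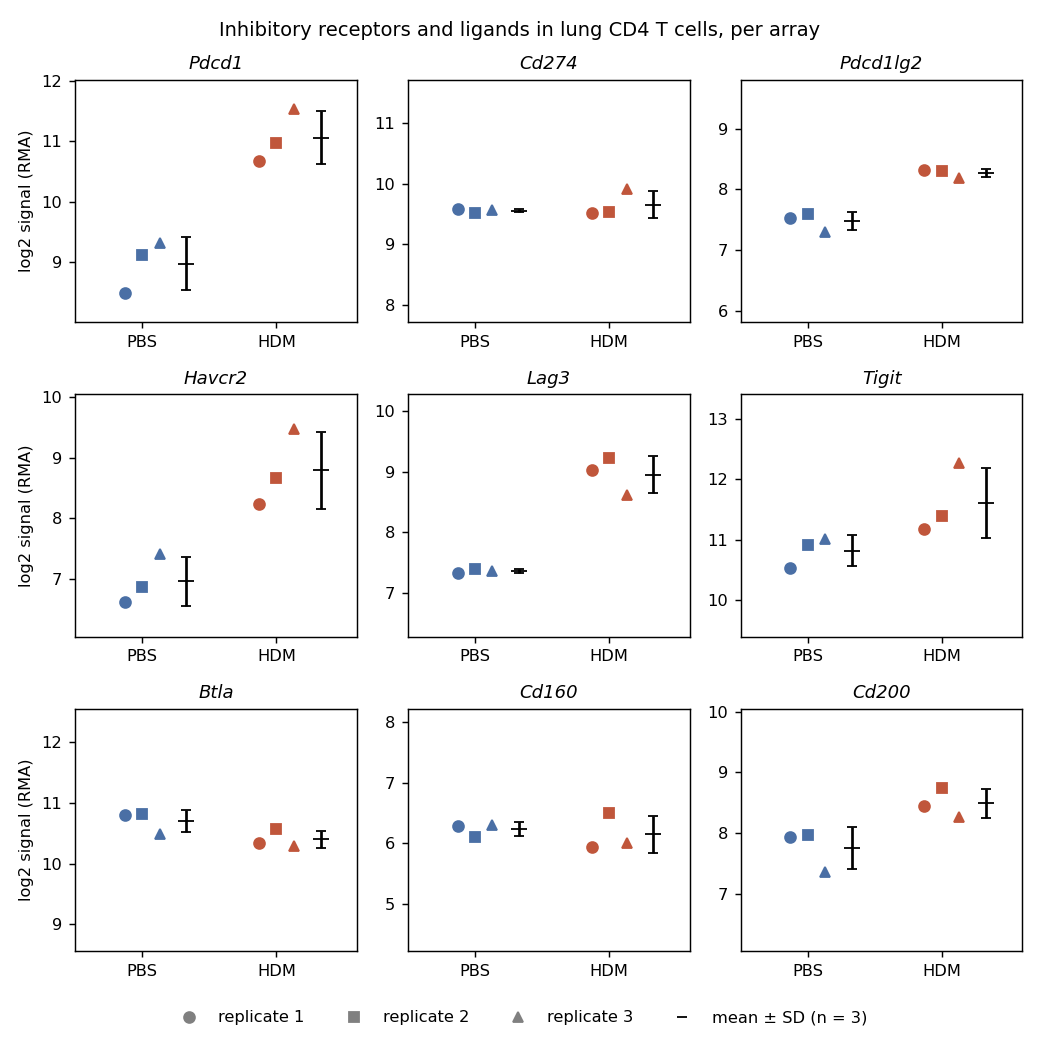
Log2 signal (RMA) of each of the 9 genes in the 3 PBS and 3 HDM arrays, with the replicate number as the marker shape and the mean ± SD beside each group; every panel spans 4 log2 units. Pdcd1, Havcr2 and Lag3 show the widest separation of the groups, Pdcd1lg2, Tigit and Cd200 a narrower one, and Cd274, Btla and Cd160 overlap.

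PD-1 showed the largest difference of the set. Pdcd1 gave 8.49, 9.13 and 9.32 in PBS replicates 1, 2 and 3 and 10.67, 10.98 and 11.53 in the HDM replicates. The lowest HDM array was 1.35 above the highest PBS array. Pdcd1 was thus 4.23-fold higher in HDM (log2 fold change 2.08 ± 0.26 SE, n = 3 per group, limma adjusted p = 0.00705), the 23rd largest absolute difference among all genes. Between arrays of the same number the difference was 2.17, 1.85 and 2.21 for numbers 1, 2 and 3. Leaving out any single array kept Pdcd1 past the test, at a log2 fold change between 1.84 and 2.27 and a highest adjusted p of 0.0416.

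The ligands of PD-1 differed from each other in the same cells. Pdcd1lg2, which encodes PD-L2, the ligand usually found on dendritic cells and macrophages and on some activated lymphocytes, gave 7.53, 7.60 and 7.30 in PBS and 8.32, 8.30 and 8.19 in HDM. The HDM arrays lay close together and all above PBS, with a gap of 0.60. It rose 1.73-fold (0.79 ± 0.11 SE, n = 3 per group, limma adjusted p = 0.00926). Its call was lost without HDM replicate 1 (0.77, limma adjusted p = 0.0513) or HDM replicate 2 (0.78, limma adjusted p = 0.0548).

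Cd274, which encodes PD-L1, the broadly expressed ligand, gave 9.58, 9.52 and 9.56 in PBS and 9.52, 9.53 and 9.91 in HDM. Of the HDM arrays, 2 lay within the PBS range and replicate 3 above it. The difference of 0.10 ± 0.12 SE did not pass (n = 3 per group, limma adjusted p = 0.744), and its 95% interval ran from −0.17 to 0.38. That interval lies below the 0.54 at which the 95% interval of Pdcd1lg2 begins, though the difference between the ligands was not itself tested. The direction of Cd274 rested on HDM replicate 3, without which it was −0.026.

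Cd274 and Pdcd1lg2 are neighbouring genes on mouse chromosome 19. Their promoters are shown with that of Pdcd1 and Havcr2 because these genes of 1 pathway, or of 1 response, separated into raised and not raised. RefSeq entries (GRCm38.p6) were matched for 8 of the 9 genes. The 250 bases before each start site were searched on both strands for the NFAT core GGAAA, the AP-1 site TGANTCA and the STAT site TTCNNNGAA, and capitals mark the matches, none of which overlapped another. The windows are chr1:94052554-94052803 on the minus strand for Pdcd1, chr19:29410669-29410918 on the plus strand for Pdcd1lg2, chr19:29367188-29367437 on the plus strand for Cd274 and chr11:46454681-46454930 on the plus strand for Havcr2, each written 5′ to 3′ toward the gene.
Pdcd1: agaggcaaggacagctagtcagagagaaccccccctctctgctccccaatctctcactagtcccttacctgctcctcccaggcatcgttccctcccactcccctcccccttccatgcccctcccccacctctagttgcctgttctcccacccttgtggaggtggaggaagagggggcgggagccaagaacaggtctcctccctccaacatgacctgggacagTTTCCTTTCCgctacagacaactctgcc
Pdcd1lg2: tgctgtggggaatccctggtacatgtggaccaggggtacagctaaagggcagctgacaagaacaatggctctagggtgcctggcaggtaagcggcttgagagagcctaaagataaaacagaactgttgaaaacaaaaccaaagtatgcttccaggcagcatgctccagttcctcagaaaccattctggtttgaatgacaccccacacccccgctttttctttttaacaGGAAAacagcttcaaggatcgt
Cd274: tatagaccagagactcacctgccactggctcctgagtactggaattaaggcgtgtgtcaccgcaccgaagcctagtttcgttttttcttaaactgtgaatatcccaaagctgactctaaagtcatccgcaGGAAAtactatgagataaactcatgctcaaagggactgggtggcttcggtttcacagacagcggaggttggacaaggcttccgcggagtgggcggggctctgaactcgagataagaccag
Havcr2: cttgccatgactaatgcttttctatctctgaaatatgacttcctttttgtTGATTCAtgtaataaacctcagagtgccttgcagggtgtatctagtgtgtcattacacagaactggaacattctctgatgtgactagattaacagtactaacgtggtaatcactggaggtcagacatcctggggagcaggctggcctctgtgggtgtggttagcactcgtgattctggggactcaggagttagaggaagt
The Pdcd1 window held 2 NFAT cores on the opposite strand, whose first bases lay 28 and 23 bases before the start. Pdcd1lg2 had 1, 22 bases before its start, and Cd274 had 1, 120 bases before its start. Havcr2 held an AP-1 site 200 bases before its start and no NFAT core. Of all 32851 RefSeq promoter windows of this length, 55.6% held the NFAT core, 6.75% the AP-1 site and 7.02% the STAT site. The raised Pdcd1lg2 and the overlapping Cd274 therefore both held the common core, and a match is only a match of letters.

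Havcr2 encodes TIM-3, a receptor of effector T cells that is also expressed by macrophages, dendritic cells and natural killer cells. It gave 6.61, 6.87 and 7.40 in PBS and 8.24, 8.66 and 9.48 in HDM. The groups did not overlap, and the arrays numbered 3 were the highest of each group. Havcr2 rose 3.55-fold (1.83 ± 0.32 SE, n = 3 per group, limma adjusted p = 0.0224), with differences of 1.62, 1.78 and 2.07 between arrays of the same number. The call was lost without PBS replicate 1 (adjusted p = 0.0844), PBS replicate 2 (adjusted p = 0.112) or HDM replicate 2 (adjusted p = 0.0843), while the log2 fold change stayed between 1.48 and 2.10.

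Lag3 encodes LAG-3, a CD4-related receptor that binds MHC class II. Its PBS values of 7.33, 7.39 and 7.36 were almost equal, with an SD of 0.03. The HDM values were 9.02, 9.22 and 8.61, all at least 1.23 above PBS. Lag3 rose 3.01-fold (1.59 ± 0.15 SE, n = 3 per group, limma adjusted p = 0.00274). Leaving out any single array kept the call, at a highest adjusted p of 0.0238. The smallest difference was between the arrays numbered 3, at 1.25, against 1.69 and 1.83.

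Tigit, Cd200 and Btla were called with the replicate number as a block and not in the main fit, which had no block. Tigit encodes a receptor that competes with the costimulatory CD226 for the ligand CD155. Its values were 10.54, 10.92 and 11.01 in PBS and 11.17, 11.39 and 12.26 in HDM. The groups were separated by only 0.16, and HDM replicate 3 was far above the other arrays. The difference was 0.79 ± 0.27 SE (n = 3 per group, limma adjusted p = 0.165, 0.0125 with the replicate block). Between arrays numbered 3 it was 1.25, against 0.63 and 0.47 for numbers 1 and 2, and without HDM replicate 3 it was 0.46 (adjusted p = 0.12), a move of over 1.5 times.

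Cd200 encodes a ligand that restrains myeloid cells through its receptor and is found on activated T cells, B cells and endothelium. It gave 7.94, 7.96 and 7.35 in PBS and 8.45, 8.74 and 8.27 in HDM. Every HDM array was above every PBS array, by at least 0.31. The difference was 0.74 ± 0.19 SE (n = 3 per group, limma adjusted p = 0.0837, 0.00491 with the replicate block). Cd200 also passed without HDM replicate 3 (0.85, limma adjusted p = 0.0478).

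BTLA and CD160 share a ligand, the herpesvirus entry mediator HVEM, and were the members whose mean was lower in HDM. Btla, a receptor of resting as well as activated lymphocytes, gave 10.81, 10.81 and 10.49 in PBS and 10.34, 10.57 and 10.29 in HDM. HDM replicate 2 overlapped with PBS replicate 3. The difference of −0.31 ± 0.12 SE did not pass (n = 3 per group, limma adjusted p = 0.221), and it passed with the replicate block (adjusted p = 0.0377), where the arrays of each number differed by −0.47, −0.25 and −0.20.

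Cd160, a receptor typical of cytotoxic lymphocytes, gave 6.29, 6.10 and 6.31 in PBS and 5.93, 6.50 and 6.003 in HDM. HDM replicate 2 was the highest and the other 2 HDM arrays the lowest of the 6, so the groups overlapped fully. The difference was −0.09 ± 0.16 SE (n = 3 per group, limma adjusted p = 0.849) with a 95% interval from −0.45 to 0.28. Without HDM replicate 1 it turned to 0.020.

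With the replicate block, 6 of the 9 genes were higher (Pdcd1, Pdcd1lg2, Havcr2, Lag3, Tigit and Cd200) and Btla was lower, by limma at an adjusted p below 0.05. In that fit 5.95% of all genes were higher and 6.01% lower. Without both arrays numbered 3, a setting added after seeing the data, 6 were again higher and 1 lower. Of the 9 genes, 2 were called higher without HDM replicate 2 and 5 without HDM replicate 3. The counts higher over all genes moved the same way, to 181 and 845, from 531 with all arrays. The plot of differences sets the fit beside the values for each replicate number.

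**Figure D2:**
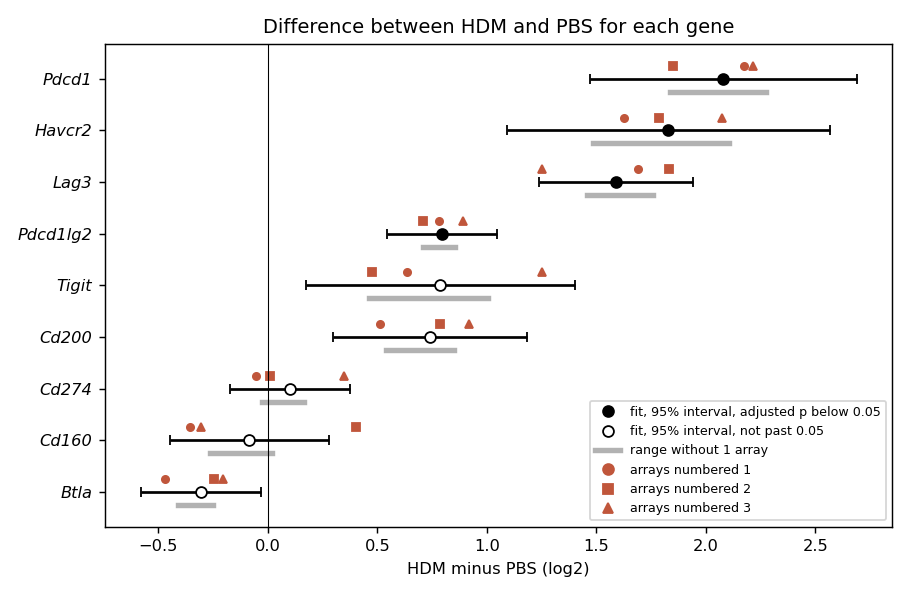
HDM minus PBS on the log2 scale for the 9 genes: circles with bars are limma's estimate and 95% interval (filled where the adjusted p is below 0.05), grey bars the range without 1 array, and red markers the difference between arrays of the same number. Pdcd1, Havcr2, Lag3, Pdcd1lg2, Tigit and Cd200 have every marker above 0, and Btla has every marker below 0; the intervals are not adjusted for the number of genes.

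Within a group, several genes shared their order over the arrays. Pdcd1, Havcr2 and Tigit were highest in the arrays numbered 3 and lowest in those numbered 1, in PBS and in HDM alike. In HDM replicate 3 they exceeded their group mean by 0.47, 0.69 and 0.65. Pdcd1lg2, Cd200 and Btla were lowest in the arrays numbered 3 of both groups, and Cd200 in PBS replicate 3 was 0.40 under its group mean. Lag3 was nearly level over PBS and was lowest in HDM replicate 3, by 0.34. Cd274 was level over PBS and high in HDM replicate 3 alone, and Cd160 had no order that both groups shared. These patterns were picked after the values were seen and describe 6 arrays.

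The genes whose 6 array values were most like those of a raised member were taken from 223 named genes with an absolute log2 fold change of at least 1, by Pearson's r, as a description. For Pdcd1 these were Cysltr2, a cysteinyl leukotriene receptor, Ptprj, a receptor tyrosine phosphatase, and Adap1, with r of 0.996, 0.993 and 0.993. For Havcr2 they were Stx11, a syntaxin of granule release, Ptprj and Cysltr2 (r of 0.995, 0.991 and 0.989), so Ptprj and Cysltr2 stood beside both receptors. For Lag3 they were Il13, the type 2 cytokine, Lxn and the chemokine receptor Cxcr6 (0.998, 0.997 and 0.996). Il13 was 10.98 and 11.29 in HDM replicates 1 and 2 and 9.88 in replicate 3, and so shared the lower replicate 3 of Lag3. For Pdcd1lg2 they were Adam19, a membrane metalloprotease, Mdfic and Crmp1 (0.997, 0.994 and 0.993). With 6 arrays in 2 separated groups, r is high for any gene that differs between the groups in the same direction.

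Of the genes next to the raised members on the chromosome, none other passed. Lag3 lies beside Cd4 and Ptms, and Cd4, given above, and Ptms (0.35 ± 0.09 SE, n = 3 per group, limma adjusted p = 0.0941) did not pass. Pdcd1 lies between Neu4 (−0.03) and Fam174a (0.14). Med7, a Mediator subunit beside Havcr2, gave 7.38, 7.36 and 7.37 in PBS and 7.75, 8.22 and 9.20 in HDM. Its groups did not overlap, and its difference of 1.03 ± 0.32 SE did not pass (limma adjusted p = 0.132). Btla and Cd200 are themselves neighbours on chromosome 16, with differences of opposite sign.

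Ligands and partner receptors of the set were 16 measured genes, of which 4 rose, 1 fell and 11 did not pass (list median 0.05), and 5 rose and 2 fell with the replicate block. Cd200r1, the receptor for CD200, gave 7.81, 7.75 and 6.97 in PBS and 9.61, 9.50 and 8.82 in HDM. It rose 3.47-fold (1.80 ± 0.27 SE, n = 3 per group, limma adjusted p = 0.0136) and lost the call without PBS replicate 2, HDM replicate 1 or HDM replicate 2, the highest adjusted p being 0.0713. Cd80, a ligand of CD28 and CTLA-4 that also binds PD-L1, rose 2.80-fold (1.49 ± 0.20, limma adjusted p = 0.00788), and lost the call without PBS replicate 2 (adjusted p = 0.0528). Tnfsf14, the HVEM ligand LIGHT, rose 1.96-fold (limma adjusted p = 0.0379) and Lgals3, a galectin that binds LAG-3, 1.74-fold (limma adjusted p = 0.0202). Tnfsf14 passed when HDM replicate 3 was left out and in none of the other 5 cases, and Lgals3 lost the call without PBS replicate 1, PBS replicate 2 or HDM replicate 1.

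The gene that fell was Rgmb, a PD-L2 binding protein (−0.62 ± 0.09 SE, n = 3 per group, limma adjusted p = 0.0129), named after its values were seen. Tnfrsf14, which encodes HVEM, the ligand of BTLA and CD160, differed by −0.14 (adjusted p = 0.488). In the TIGIT axis, also chosen after seeing the values, Pvr, which encodes CD155, gave 10.44, 10.61 and 10.84 in PBS and 9.38, 9.29 and 10.26 in HDM. All HDM arrays lay below PBS, and the difference of −0.99 ± 0.25 SE did not pass (limma adjusted p = 0.0729, 0.00436 with the replicate block). Cd226, the activating partner of TIGIT, differed by 0.63 (adjusted p = 0.159, 0.0101 with the block).

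Among 12 measured genes of other co-inhibitory receptors, 2 rose, 1 fell and 9 did not pass (median 0.12), and 5 rose and 1 fell with the replicate block. Klrg1, a lectin-like receptor of differentiated effector cells, rose 2.30-fold (1.20 ± 0.17 SE, n = 3 per group, limma adjusted p = 0.0109), and lost the call without PBS replicate 1, HDM replicate 1 or HDM replicate 2 (highest adjusted p 0.0602). Cd101, an immunoglobulin-family receptor, rose 2.06-fold (1.04 ± 0.14, limma adjusted p = 0.00768) and passed whichever array was left out. Pecam1, an inhibitory adhesion receptor that endothelium carries too, fell (−0.51 ± 0.08, limma adjusted p = 0.0169), and lost the call without any 1 of 4 arrays, those numbered 1 and 2. Ctla4, the CD28 antagonist, gave 10.26, 10.52 and 9.39 in PBS and 10.89, 11.01 and 11.25 in HDM, and its difference of 0.99 ± 0.26 did not pass (limma adjusted p = 0.0895, 0.0375 with the replicate block). Ctla4 was chosen after its values were seen.

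Costimulatory receptors gave 2 raised genes and 1 lowered gene of 12 (median 0.06), and 5 and 2 with the replicate block. Icos, the inducible costimulator, rose 1.51-fold (0.60 ± 0.08 SE, n = 3 per group, limma adjusted p = 0.00916), losing the call without HDM replicate 2 (adjusted p = 0.0525). Slamf1 rose by 0.39 and Slamf6, which marks T cells that have differentiated less, fell by 0.42. Slamf1 passed in none of the 6 fits without 1 array and Slamf6 in 1, the fit without PBS replicate 3. Cd28 itself lay between 11.38 and 11.58 in all 6 arrays.

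Of 16 measured signalling enzymes and adaptors of inhibitory receptors, 1 rose, 1 fell and 14 did not pass (median 0.00), and 2 rose and 3 fell with the replicate block. Inpp5d, the phosphatase SHIP, rose by 0.45 (SE 0.08, n = 3 per group, limma adjusted p = 0.022). Pag1, an adaptor that anchors the kinase CSK, fell by 0.47 (SE 0.10, limma adjusted p = 0.0427). Inpp5d lost the call without any 1 of the arrays numbered 1 and 2, and Pag1 unless HDM replicate 3 was the array left out. The phosphatase genes Ptpn6 (0.26, adjusted p = 0.415) and Ptpn11 (0.21, adjusted p = 0.213), which encode the enzymes that the PD-1 and BTLA tails recruit, did not pass.

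Transcription regulators linked to T cell activation and inhibitory receptor genes gave 8 raised and 0 lowered genes among 21 measured by limma, with 13 not past the test and a median of 0.49. With the replicate block 14 rose and 1 fell. Id3 was the 1 gene lower at an unadjusted p below 0.05 and with the replicate block (−0.43, adjusted p = 0.058, 0.0221 with the block). Maf, which drives Il10 and several inhibitory receptors, gave 9.47, 9.62 and 9.44 in PBS and 11.11, 11.03 and 11.09 in HDM. It rose 2.96-fold (1.57 ± 0.08 SE, n = 3 per group, limma adjusted p = 0.000281), and passed whichever array was left out. Egr3, a factor of T cell receptor signalling and anergy, rose 2.43-fold (limma adjusted p = 0.0198), Irf4, a factor of effector differentiation, 2.01-fold (limma adjusted p = 0.0227), and Tox2, a relative of the exhaustion factor TOX, 1.84-fold (limma adjusted p = 0.0114). These last 3 each lost the call without 2 to 4 of the arrays, with adjusted p of up to 0.105.

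The other 4 raised regulators were Foxp3, Ikzf2, Bhlhe40 and Nfatc2. Tox differed by 0.26 (adjusted p = 0.269) and Nr4a1, an immediate-early factor of T cell receptor signalling, by −0.01 (adjusted p = 0.99). Nr4a1 gave 11.88, 12.35 and 12.59 in PBS and 11.82, 12.02 and 12.95 in HDM. It was thus lowest in the arrays numbered 1 and highest in those numbered 3 of both groups, as Pdcd1, Havcr2 and Tigit were, while its groups overlapped. Tox and Nr4a1 were chosen after their values were seen. The plot of related lists sets the 5 lists beside the 9 genes.

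**Figure D3:**
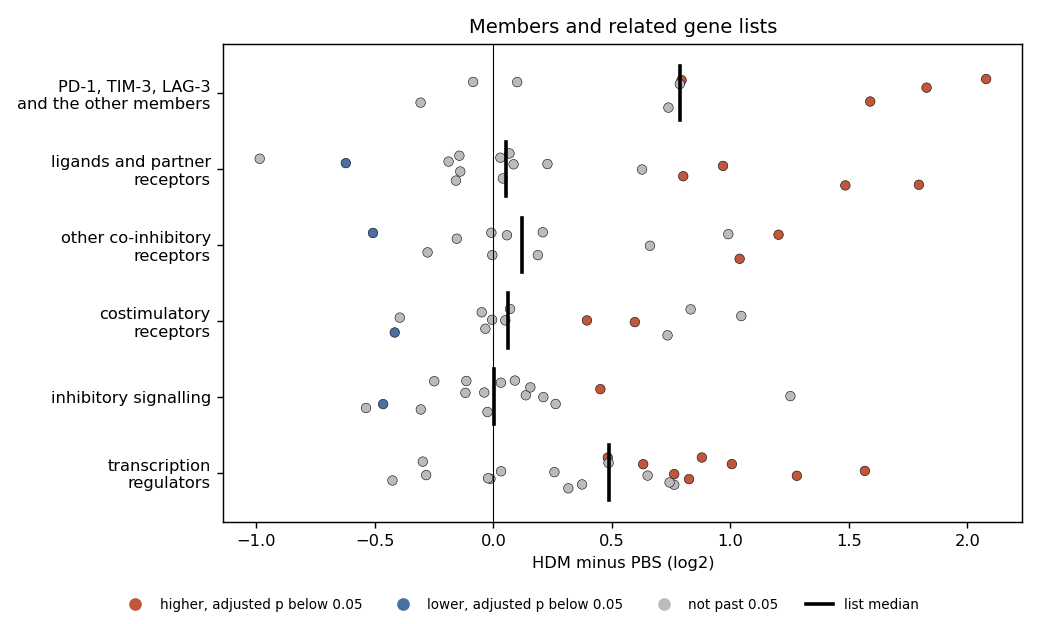
HDM minus PBS on the log2 scale for every measured gene of the 9-gene set and of 5 related lists, 1 point per gene, coloured by limma's call at an adjusted p below 0.05, with the list median as a black bar. The medians are 0.79 for the set and 0.49 for the transcription regulators, and between 0.00 and 0.12 for the other 4 lists; points are spread vertically at random.

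Other cell types that the sort could hold, or other T cell states, also express these genes, and their markers were measured in the same arrays. The mean log2 signal of 6 regulatory T cell markers lay between 9.78 and 10.16 in PBS and between 11.00 and 11.16 in HDM, and 4 of the 6 rose. These were Itgae, with the largest difference (2.50), Il2ra (1.16), Foxp3 (0.83) and Ikzf2 (0.76). Ctla4, given above, and Tnfrsf18 (0.07, limma adjusted p = 0.863) did not pass. T follicular helper cells carry much PD-1 and CD200. The mean of 5 of their markers lay between 8.86 and 9.03 in PBS and between 9.40 and 9.80 in HDM. Of the 5, 2 rose, Icos and Il21. Cxcr5 (0.44, limma adjusted p = 0.255), Bcl6 (0.49, limma adjusted p = 0.236) and Sh2d1a (−0.02, limma adjusted p = 0.958) did not pass. With the replicate block 4 of 5 rose, all but Sh2d1a. Of 4 measured markers of type 2 innate lymphoid cells 2 rose, Gata3 and Klrg1, which T cells express too. Rora (0.41, limma adjusted p = 0.216) and Arg1 (1.56, limma adjusted p = 0.155) did not pass, and their groups overlapped. With the replicate block all 4 were called higher, Rora at a limma adjusted p of 0.0138 and Arg1 at 0.0252. Between arrays numbered 3 Arg1 differed by only 0.36, against 2.07 and 2.25 for numbers 1 and 2.

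Markers of myeloid cells, which carry TIM-3 and PD-L2, moved in part. The mean of 10 macrophage markers lay between 7.88 and 7.99 in PBS and between 8.13 and 8.51 in HDM. Of these, Chil3, a secreted chitinase-like protein, rose (2.11 ± 0.38 SE, n = 3 per group, limma adjusted p = 0.0248), and 9 did not pass. With the replicate block 2 rose, Chil3 and Csf1r (0.52, limma adjusted p = 0.0488). Without Chil3, a setting added after seeing the data, the mean of the other 9 was 7.69, 7.77 and 7.94 in PBS and 8.17, 7.75 and 8.21 in HDM, so the groups overlapped. Adgre1, the macrophage gene of the gate, differed by 0.39 (adjusted p = 0.469). Among 8 dendritic cell markers Itgax, the integrin CD11c, rose (1.06 ± 0.22, limma adjusted p = 0.038) and Ccr7, which naive T cells express too, fell. Flt3 (−0.01), Zbtb46 (−0.01) and H2-Ab1 (0.71, limma adjusted p = 0.438) were among those that did not pass. With the replicate block 2 rose, Itgax and H2-Ab1 (limma adjusted p = 0.00831), and 1 fell. Whether such cells contributed to Havcr2 and Pdcd1lg2 was not tested.

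Markers of B cells, which carry BTLA and CD200, did not pass in any of 6 measured genes by limma, 0 of them also at an unadjusted p below 0.05 and 0 with the replicate block. Their mean lay between 6.74 and 7.26 in PBS and between 6.61 and 7.82 in HDM, and it was highest in the array numbered 3 of each group, where Btla and Cd200 were lowest. Markers of natural killer cells, which carry CD160, TIGIT and TIM-3, fell in part: of 6 genes, the cytotoxic genes Gzma, Klrd1 and Prf1 fell, and Ncr1 (−0.13, adjusted p = 0.909), Klrb1c (−0.12, adjusted p = 0.553) and Eomes (−0.02, adjusted p = 0.954) did not pass. Their mean lay between 7.34 and 7.64 in PBS and between 6.62 and 7.17 in HDM. The endothelial and stromal list also held the epithelial genes Epcam and Sftpc. Its mean, between 8.08 and 8.89 in PBS and 7.80 and 8.61 in HDM, was lowest in the arrays numbered 1. It was highest in those numbered 3, as Pdcd1, Havcr2 and Tigit were. The means of the B cell markers and of 5 plasma cell markers (7.24, 7.31 and 7.43 in PBS, 7.39, 7.63 and 7.92 in HDM) had the same order in both groups. Of the 7 genes of the endothelial and stromal list, Pecam1 fell. With the replicate block 4 fell, Pecam1, Cdh5, Kdr and the epithelial Sftpc. The part of any of these cells in the differences above was not tested.

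**Figure D4:**
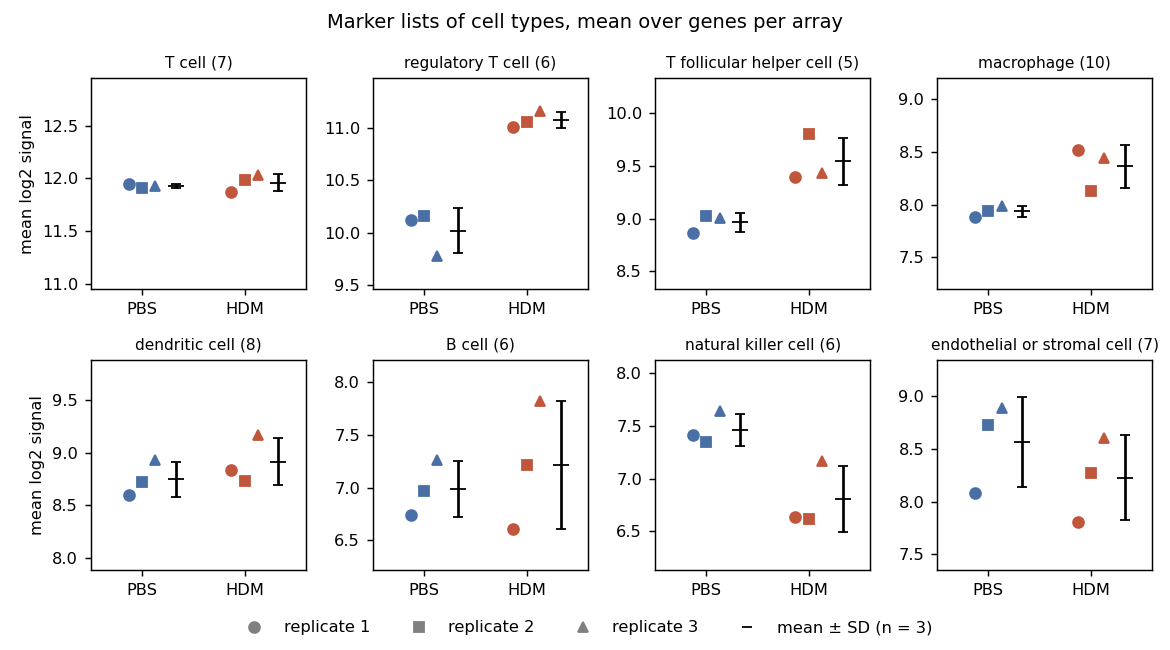
Mean log2 signal over the measured genes of 8 marker lists (number of genes in brackets) in each array, with mean ± SD beside each group; every panel spans 2 log2 units. The mean of the T cell markers, of which Trat1 is lower in HDM, lies between 11.87 and 12.03 in all arrays. The mean of the regulatory T cell markers is higher in all HDM arrays, the natural killer mean is lower in all of them, and the B cell means overlap.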

How the data were processed

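The deposited table gave log2 signals per probe set from Affymetrix arrays, which the authors computed with RMA, a method that corrects background, equalises array distributions and summarises probes; the submitters' processing notes name it without a version. Values ran from 2.95 to 14.1, and no depth exists for arrays; their number limits the precision. RMA hides a change in total RNA per cell. Of 33960 probe sets, 23521 had exactly 1 symbol in the platform annotation, 1814 several and 8625 none here; the brightest per gene by mean over the 6 arrays was used. No gene was filtered. No 2 arrays shared more than 5 identical values over the genes.

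HDM was compared with PBS in R 4.3.3 with limma 3.58.1 (lmFit, eBayes with intensity trend), two-sided, with Benjamini-Hochberg adjustment over 22180 genes and a threshold of 0.05. SEs and 95% intervals use limma's moderated spread. The test was tested on simulated data. Across genes, departures from the group mean of arrays sharing a number correlated at 0.43, 0.17 and 0.53 for numbers 1, 2 and 3. Each was above the minimum of 0.1, so the numbers were treated as pairs in the fit with the replicate block. The main fit, which gave every call where no other setting is named, had no block. PBS replicate 1 and HDM replicate 2, of unlike number, also exceeded that minimum at 0.25, above the value for number 2. The remaining pairs of unlike number lay between −0.50 and 0.045. The pairing thus comes from the data, not the labels, and is weakest for number 2. Blocked values are given where they change a call among the 9 genes, for the 5 related lists and for several marker lists.

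The 9 genes, the lists and the tests were chosen with earlier results of these data known. The text named the 9 genes, up to 4 passing genes per list by size of change (2 where none passed), gate genes, chromosomal neighbours, marker genes, and the 3 genes most like each raised gene. Some listed genes were not analysed here. Alternatives covered dim genes, normalization, variance models, array weights, probe sets, the block, thresholds and left-out arrays.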

Additional observations from a re-analysis of the deposited data

How the results depend on the processing

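Pdcd1, Lag3 and Pdcd1lg2 kept direction and call in every setting that kept all arrays, and in the one without both arrays numbered 3, which was chosen after seeing the data. Without 1 array the log2 fold change ranged from 1.84 to 2.27 for Pdcd1, 1.46 to 1.76 for Lag3 and 0.71 to 0.85 for Pdcd1lg2. The ranges were 1.48 to 2.10 for Havcr2, 0.46 to 1.01 for Tigit, 0.54 to 0.85 for Cd200 and −0.41 to −0.25 for Btla. Those of the uncalled Cd274 (−0.026 to 0.17) and Cd160 (−0.26 to 0.020) included a change of sign. Havcr2 (1.83) lost its call at a threshold of 0.01. The replicate block called Tigit (0.79), Cd200 (0.74) and Btla (−0.31) and ended no call among the 9 genes. Cd200 also passed at a threshold of 0.10 (0.74) and with array weights (0.68). Without both arrays numbered 3, Tigit (0.55), Cd200 (0.65) and Btla (−0.36) passed, and the uncalled Cd274 (−0.023) and Cd160 (0.025) reversed. Cd160 was too dim to be tested when genes below the median signal were left out. The set's count was 2 to 5 higher and 0 lower without 1 array, and 1 was lower with the block or without both arrays numbered 3. The cause of these moves was not tested.

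Over all genes, counts higher and lower were 1319 and 1334 with the block, 914 and 923 with array weights, 352 and 191 when adjusted over all probe sets, 172 and 55 at 0.01, 819 and 716 at 0.10, and 1250 and 1326 without both arrays numbered 3. They were 557 lower with genes below the median signal left out, and 177 to 845 higher and 41 to 722 lower without 1 array. Of the 5 related lists together, 31 genes rose and 9 fell with the block, 26 and 9 without both arrays numbered 3, and 5 and 0 at 0.01. Those lower were 2 with arrays centred on their medians or adjusted over all probe sets, 8 with array weights and 7 at 0.10. Without 1 array 6 to 20 rose and 0 to 6 fell.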
